A study of Bos taurus with 6 samples.

Results

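The nuclear genes for the subunits of the mitochondrial respiratory chain and of the ATP synthase were described in cultured bovine granulosa cells (GC), the somatic cells of the ovarian follicle that make estradiol. Transcript clusters, the gene-level units of the array, were taken by symbol: NDUFA, NDUFB, NDUFC, NDUFS and NDUFV with a number, SDHA to SDHD, the UQCR genes, the structural COX genes of the groups 4 to 8 followed by the letter A, B or C, CYC1, CYCS and the ATP5 genes, with NDUFA4L2 left out. This gave 85 of 26773 transcript clusters, with 81 symbols. Complex I had 38 transcript clusters, complex II 4, complex III 9, complex IV 16 and complex V 17, and cytochrome c, the carrier between complexes III and IV, had 1. By this spelling COX4I1, COX4I2 and NDUFAB1 stayed outside, and NDUFA4 was counted in complex I by its prefix, although it is now assigned to complex IV. The symbols are those of the array annotation. Current RefSeq names differ for 17 of the 85, all of them ATP5 genes: ATP5A1 is now ATP5F1A, ATP5G1 is ATP5MC1, ATP5I is ATP5ME and ATP5S is DMAC2L. Of 26 names listed for subunits encoded by the mitochondrial genome, 0 were found, and these genes were not analysed here.

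The cells came from 6 cultures of primary bovine GC, 3 plated at normal density with 100000 cells per well and 3 at high density with 1000000 cells per well. In both groups the cells were kept without serum in alpha-MEM with 20 ng/ml FSH, 50 ng/ml R3 IGF-1 and 2 µM androstenedione until day 9, on collagen-coated plates. They had been aspirated from small to medium follicles of abattoir ovaries and frozen before plating, and each preparation pooled cells of at least 15 cows of undefined cycle stage, so a culture stands for a pool and not for an animal. RNA of each culture was hybridized to 1 gene-level array (Bovine Gene 1.0 ST), and the comparison asks whether a 10-fold higher plating density alters the transcript levels of the respiratory chain.

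The respiratory chain passes electrons from NADH and succinate to oxygen. Complex I (NADH dehydrogenase) and complex II (succinate dehydrogenase, also an enzyme of the tricarboxylic acid cycle) feed ubiquinone, complex III passes the electrons on to cytochrome c, and complex IV (cytochrome c oxidase) reduces oxygen. Complexes I, III and IV pump protons, and complex V uses the proton gradient to make ATP. In steroid-producing cells the mitochondrion is also where cholesterol is cleaved to pregnenolone, a step that takes electrons from NADPH and not from this chain.

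The levels of nearly all subunits differed little between the densities. The median difference (high minus normal density, on the log2 scale) was 0.02 over the 85 subunits and 0.02 over all transcript clusters, and the subunits ranged from -0.89 for a transcript cluster of COX7B to 0.59 for COX7A1. For 79 of 85 subunits (92.9%) the difference was smaller than 0.25 on the log2 scale, against 69.5% of all transcript clusters. In limma, with p-values adjusted over the whole table (Benjamini-Hochberg), 6 of the 85 subunits (7.06%) passed a false discovery rate (FDR) of 0.05 at any fold change (FC), against 19.1% of all transcript clusters. Of these, 5 were higher at high density (5.88%, against 8.64% of all) and 1 was lower (1.18%, against 10.4% of all). With an FC above 1.5 in addition, 2 subunits were left (2.35%, against 7.49% of all), COX7A1 as the higher one (3.97% of all were called higher) and COX7B as the lower one (3.51% of all). A further count at an unadjusted p below 0.05 gave 13 subunits (15.3%), against 32.3% of all transcript clusters. In a culture extract, fewer transcripts per cell and fewer cells that carry them cannot be told apart.

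**Figure D1:**
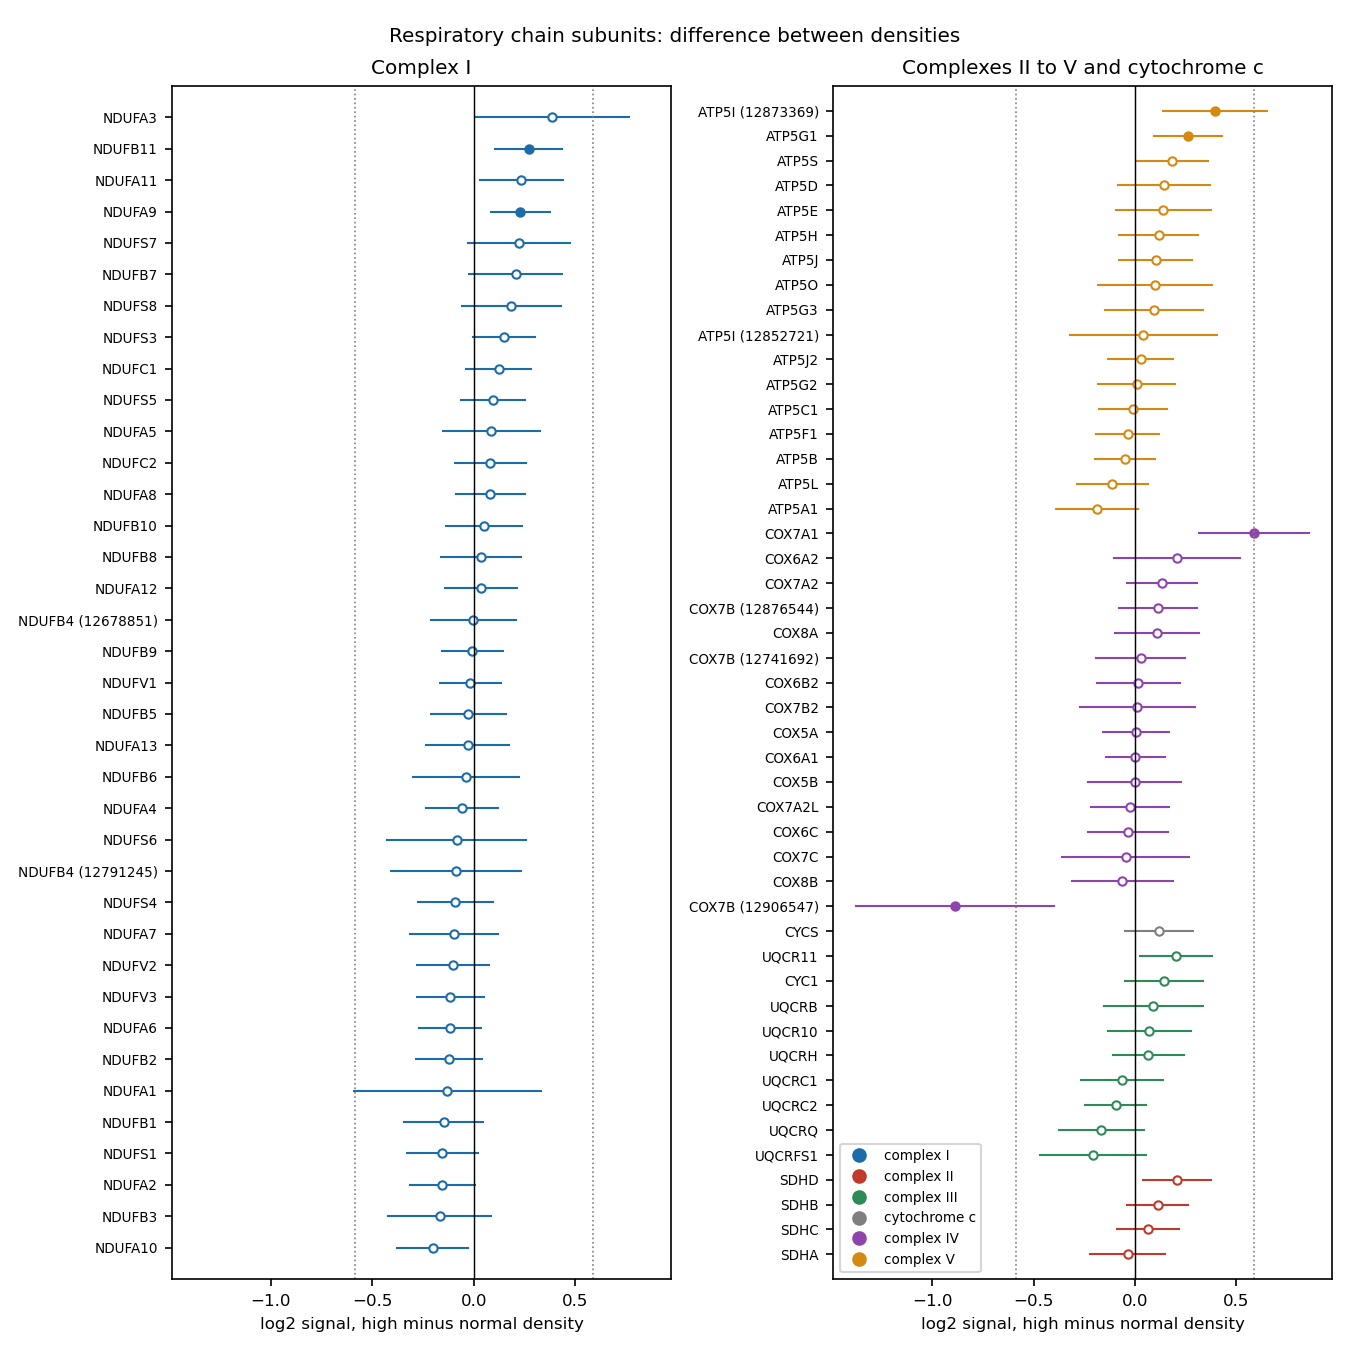
Difference in log2 signal between high and normal density for 84 of the 85 transcript clusters, with 95% confidence intervals from limma (n = 3 cultures per group). Filled points passed the FDR of 0.05, colours mark the complexes, dotted lines mark an FC of 1.5 in either direction, and numbers in brackets are transcript clusters of symbols that have several. COX7A1 lies farthest to the right and the COX7B transcript cluster 12906547 farthest to the left, and most of the other intervals lie between the dotted lines.

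The intervals bound how large a missed change could be. In 80 of the 85 subunits (94.1%) the whole 95% confidence interval of the difference lay within an FC of 1.5 in either direction, and the same held for 76.6% of all transcript clusters. The 5 exceptions were COX7A1, COX7B (12906547), NDUFA3, ATP5I (12873369) and NDUFA1. Since subunits were brighter on the array than most transcript clusters, they were also set beside the 9945 transcript clusters with mean signals between 5.41 and 10.03, the 10th and 90th percentiles of the subunits. Of those, 32.2% passed the FDR, 12.8% higher and 19.4% lower, and 11.8% passed FC and FDR. Their median difference was -0.07, against 0.02 over the subunits, and 58.6% differed by less than 0.25 on the log2 scale. The 3 high density signals lay all above or all below the 3 normal density signals in 28 subunits. These were 32.9%, against 37.3% of all transcript clusters and 56.2% of those of similar signal. In 18 subunits they lay above (21.2%, against 17.8% of all) and in 10 below (11.8%, against 19.5% of all). The 7 dimmest subunits had both group means at or under the background level of the array (4.62 on the log2 scale, from its reporter control rows). They were NDUFB4 with both its transcript clusters, COX6B2, COX7B2, COX7C, COX8B and ATP5I (12852721), so their differences cannot be interpreted.

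**Figure D2:**
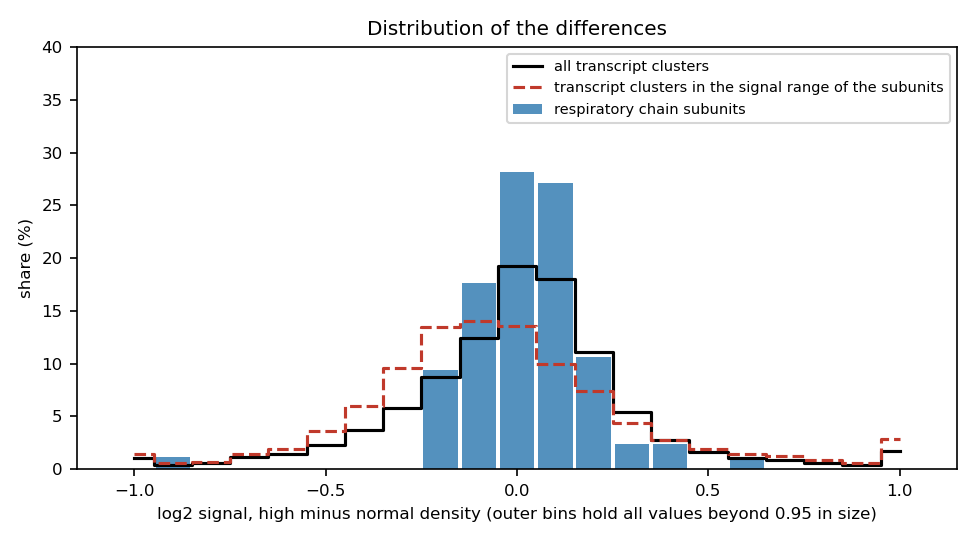
Share of transcript clusters (%) by difference in log2 signal, high minus normal density, in bins of 0.1, for the 85 subunits (bars), all 26773 transcript clusters (solid line) and the 9945 of similar signal (dashed line). The bars stand above both lines near 0, where 92.9% of the subunits differed by less than 0.25, and mostly below them farther out.

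The cultures did not weigh equally. High density replicate 2 was the farthest of the 3 high density cultures from the other two in 62 of the 85 subunits (72.9%), against 49.5% of all transcript clusters. In 25 subunits (29.4%, against 20% of all) replicates 1 and 3 at high density lay on one side of all normal density cultures while replicate 2 did not, 11 times above and 14 times below. Without this culture 19 subunits passed the FDR (22.4%, against 29.2% of all), 14 higher and 5 lower, among them all 6 that passed with every culture, and still 2 passed FC and FDR. Without any one of the other 5 cultures, 1 of the 85 subunits passed the FDR: COX7B (12906547) without normal density replicate 3, and COX7A1 in the other 4 cases.

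The cell type of the cultures was read from marker genes. Of 12 GC markers all were above the background level on at least 1 array, and 9 passed the FDR (75%, against 19.1% of all transcript clusters), 7 lower and 2 higher at high density. FSHR, the FSH receptor, fell by 2.21 on the log2 scale, INHA, the inhibin alpha subunit, fell by 2.16, and CYP19A1, the aromatase that makes estradiol, went from 6.51 to 3.71, where 0 of 3 arrays were above background. The 2 that passed upwards were NR5A2, a nuclear receptor of steroid-producing cells, which rose by 0.41, and HSD17B1, which reduces estrone to estradiol and had means of 4.19, with 0 of 3 arrays above background, and 5.45. The mean log2 signal over the 12 GC markers was 7.62 to 7.82 at normal density and 6.91 to 7.02 at high density. Of 10 markers of theca and stroma cells, 6 passed, all higher (60%, against 8.64% of all transcript clusters), with mean signals over the list of 7.38 to 7.46 and 7.90 to 7.99, and the leading rises were those of INSL3 (1.82), COL1A1 (1.15) and ACTA2 (1.15). CYP17A1, the theca enzyme of androgen synthesis, was above background on 0 arrays. The 12 leukocyte markers and the 7 red blood cell markers found of 8 listed were above background on 0 arrays. HBA, the hemoglobin alpha chain, was not on that list and is named after its values were seen. It had signals of 3.57, 3.42 and 3.44 at normal density, with 0 of 3 arrays above background, and of 9.78, 9.16 and 9.18 at high density. Of 8 endothelial markers 2 were above background, among them CLDN5, a tight junction protein (4.71 and 7.53, on 2 of 3 normal density arrays above background). The part of these shifts in the subunit values was not tested.

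Complex I, the entry point for electrons from NADH, had 2 of 38 transcript clusters past the FDR (5.26%, against 19.1% of all). Both were higher (8.64% of all were), and the median difference over the complex was -0.02. The catalytic core holds the flavin and the iron-sulfur clusters, and 6 of its subunits are described here, with 0 of the 6 past the FDR in limma. NDUFV1, which binds NADH and the flavin, differed by -0.02 with a 95% interval of -0.17 to 0.13. NDUFV2 differed by -0.10 and NDUFS1 by -0.16. NDUFS3 differed by 0.15 and passed the FDR with trended and robust variances. NDUFS8 differed by 0.19 and NDUFS7 by 0.22, so these core subunits lay on both sides of 0.

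The NDUFS7 signals were 7.09, 7.13 and 7.02 against 7.44, 7.07 and 7.39, with replicate 2 at high density among the normal density values. Without that culture NDUFS7 (0.34) and NDUFS8 (0.30) passed the FDR.

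The 2 subunits of complex I that changed are accessory subunits, which surround the core and are needed for its assembly and stability. NDUFA9, a subunit at the joint of the matrix and membrane arms, had signals of 9.34, 9.37 and 9.34 at normal density and 9.59, 9.56 and 9.58 at high density. The groups did not overlap and hardly varied within themselves. The difference was 0.23 ± 0.06 (SE, n = 3 per group), an FC of 1.17, with an adjusted p of 0.0408 in limma. NDUFB11, in the membrane arm, went from 8.32, 8.35 and 8.29 to 8.64, 8.50 and 8.63. Here too all high density cultures were above all normal density cultures, with replicate 2 the lowest of them. The difference was 0.27 ± 0.07 (SE, n = 3 per group; FC 1.21, adjusted p = 0.036, limma). High density replicate 2 could be left out with both calls kept, but leaving out any other culture ended both, with differences of 0.22 to 0.24 for NDUFA9 and 0.25 to 0.29 for NDUFB11.

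NDUFA3 had the widest step among the complex I subunits that did not pass. Its signals were 8.08, 8.16 and 8.07 at normal density and 8.80, 8.12 and 8.55 at high density, a difference of 0.38 with a 95% interval of 0.005 to 0.76 (adjusted p = 0.15, limma). High density replicates 1 and 3 were above the normal density cultures and replicate 2 was among them. Without replicate 2 the difference was 0.57 and passed the FDR. NDUFA1 varied most within a group, with 5.58, 6.38 and 5.80 at high density around the 6.13, 5.88 and 6.13 of normal density. The other accessory subunits that were not past the FDR lay between -0.20 (NDUFA10, adjusted p = 0.108) and 0.23 (NDUFA11, adjusted p = 0.111, limma).

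**Figure D3:**
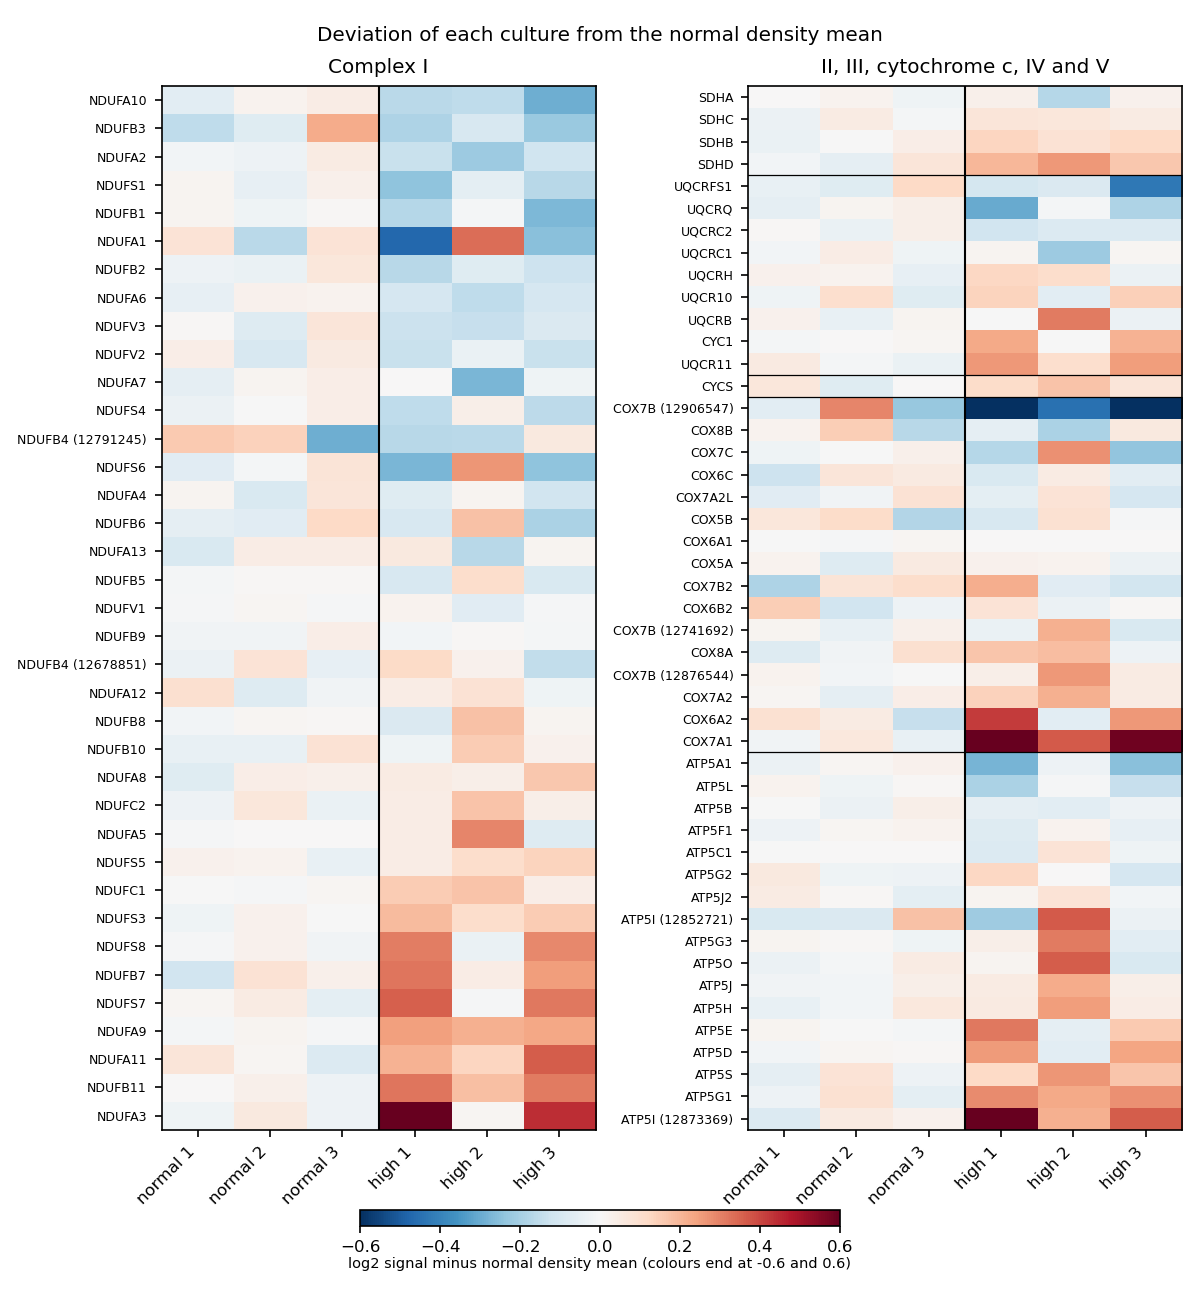
Log2 signal of each culture (columns) minus the normal density mean, for 84 of the 85 transcript clusters (lines), with complex I on the left and the others on the right, parted by black lines. Red is higher and blue lower than the normal density mean, and colours end at 0.6 in either direction. Normal density cultures are pale, high density replicates 1 and 3 often share a colour that replicate 2 lacks, as in NDUFA3, NDUFS7 and ATP5D, and COX7A1 and COX7B (12906547) are strongly coloured in the high density cultures.

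Complex II, the only complex with no subunit from the mitochondrial genome, had 0 of 4 subunits past the FDR in limma, 1 at an unadjusted p below 0.05 (SDHD, which passed the FDR with trended and robust variances) and a median difference of 0.09. SDHA, the flavoprotein that oxidizes succinate, was at 8.94, 8.96 and 8.91 and at 8.96, 8.76 and 8.96, a difference of -0.04 with a 95% interval of -0.22 to 0.15. SDHB, the iron-sulfur subunit, was at 9.59, 9.63 and 9.67 and at 9.76, 9.71 and 9.74. The SDHA groups overlapped and the SDHB groups did not, with a SDHB difference of 0.11 that did not pass (adjusted p = 0.286, limma). The membrane anchor SDHC had signals of 8.168, 8.251 and 8.190 and of 8.275, 8.271 and 8.253, a difference of 0.06. The other anchor, SDHD, had signals of 8.92, 8.89 and 9.01 and of 9.14, 9.20 and 9.10, a difference of 0.21 with an adjusted p of 0.0872 (limma). In SDHB, SDHC and SDHD all high density signals lay above all normal density signals, by less than the FDR asks for. The same held for 17.8% of all transcript clusters. Groups apart in either direction were seen in 37.3% of all and in 56.2% of those in the signal range of the subunits.

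Complex III, which passes electrons from ubiquinol to cytochrome c, had 0 of 9 subunits past the FDR in limma, 1 at an unadjusted p below 0.05 (UQCR11, which passed the FDR with trended and robust variances) and a median difference of 0.07. Both redox subunits encoded in the nucleus were measured. CYC1, the cytochrome c1 heme protein, had signals of 9.94, 9.95 and 9.96 and of 10.18, 9.95 and 10.16. Its replicate 2 at high density stood among the normal density cultures, and the difference of 0.14 did not pass (adjusted p = 0.277, limma). Without that culture it was 0.22 and passed. UQCRFS1, the Rieske iron-sulfur protein, had signals of 6.23, 6.20 and 6.40 and of 6.17, 6.19 and 5.85, a difference of -0.21 (adjusted p = 0.252, limma). The core proteins UQCRC1 and UQCRC2 differed by -0.06 and -0.09. The smaller subunits ran from -0.17 for UQCRQ to 0.20 for UQCR11. Without high density replicate 2 complex III had 3 of 9 past the FDR (33.3%, against 29.2% of all transcript clusters). They were CYC1, UQCR11 (0.25) and UQCRQ (-0.24). CYCS, cytochrome c itself, was at 7.17, 7.03 and 7.10 and at 7.21, 7.27 and 7.18. The groups lay close together without overlapping, and the difference of 0.12 (95% interval -0.05 to 0.29) did not pass (adjusted p = 0.307, limma).

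Complex IV, the cytochrome c oxidase, had the largest differences of all complexes in both directions and a median difference of 0.01. Of its 16 transcript clusters, 2 passed the FDR (12.5%, against 19.1% of all). COX7A1, the isoform of subunit 7A known from heart and skeletal muscle, had signals of 6.63, 6.72 and 6.61 at normal density and 7.46, 7.02 and 7.24 at high density. All 3 high density cultures were above all normal density cultures, and replicate 2 was the lowest of them. The difference was 0.59 ± 0.12 (SE, n = 3 per group), with an adjusted p of 0.012 in limma. The FC of 1.5 was only just above the threshold, 0.588 against 0.585 on the log2 scale. Without normal density replicate 3 the difference was 0.57 and did not pass the FDR. It passed the FDR but not the FC without normal density replicate 1 (0.58), without high density replicate 1 (0.48) and with median centring (0.54). With the methods' t-test per transcript cluster COX7A1 did not pass the FDR. COX7A2, the isoform found in most tissues, had signals of 9.45, 9.38 and 9.47 and of 9.57, 9.64 and 9.48, a difference of 0.13 (adjusted p = 0.262, limma). COX7A2L, a relative of COX7A2 known as a factor of supercomplex assembly, differed by -0.02. So among the 3 genes of this family, 1 rose. A test of the difference between them was not run.

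COX7B, a small structural subunit, has 3 transcript clusters on the array that went different ways. Transcript cluster 12906547 had signals of 5.16, 5.52 and 5.002 at normal density and 4.18, 4.78 and 4.06 at high density. All high density cultures were below all normal density cultures, and 2 of the 3 were under the background level of 4.62. The difference was -0.89 ± 0.21 (SE, n = 3 per group; adjusted p = 0.0241, limma), against a high density group with 1 of 3 arrays above background. The call was lost when normal density replicate 1 or 2 or high density replicate 1 or 3 was left out, with differences of -0.92 to -0.74. It was also lost with the methods' t-test. Transcript cluster 12741692 was at 9.32, 9.26 and 9.34 and at 9.26, 9.52 and 9.22, a difference of 0.03. Transcript cluster 12876544 was at 8.84, 8.80 and 8.82 and at 8.85, 9.08 and 8.86, a difference of 0.11 (adjusted p = 0.393, limma). The fall was thus seen in 1 of 3 transcript clusters under the same symbol, the dimmest of them. That one is annotated to a RefSeq transcript, while the other 2 share 1 Ensembl transcript. Whether the fall stands for COX7B was not tested.

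No other isoform of complex IV passed the FDR with all cultures. COX6A1, the general form of subunit 6A, was at 10.98, 10.98 and 11.00 and at 10.99, 10.99 and 10.99, with a 95% interval of the difference of -0.14 to 0.15. COX6A2, its form in heart and skeletal muscle, was at 5.31, 5.27 and 5.08 and at 5.64, 5.16 and 5.48, a difference of 0.21 (adjusted p = 0.334, limma), with replicate 2 at high density inside the normal density range. Without that culture it was 0.34 and passed the FDR. COX8A, the general form of subunit 8, differed by 0.11 (adjusted p = 0.456, limma). COX8B, its muscle form, and the testis forms COX6B2 and COX7B2 were above the background level on 0 arrays. COX5A and COX5B, which belong to every cytochrome c oxidase, differed by 0.01 and -0.003, with 95% intervals of -0.16 to 0.17 and of -0.23 to 0.23. COX6B1 and COX8C were not matched by symbol and are not reported here.

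**Figure D4:**
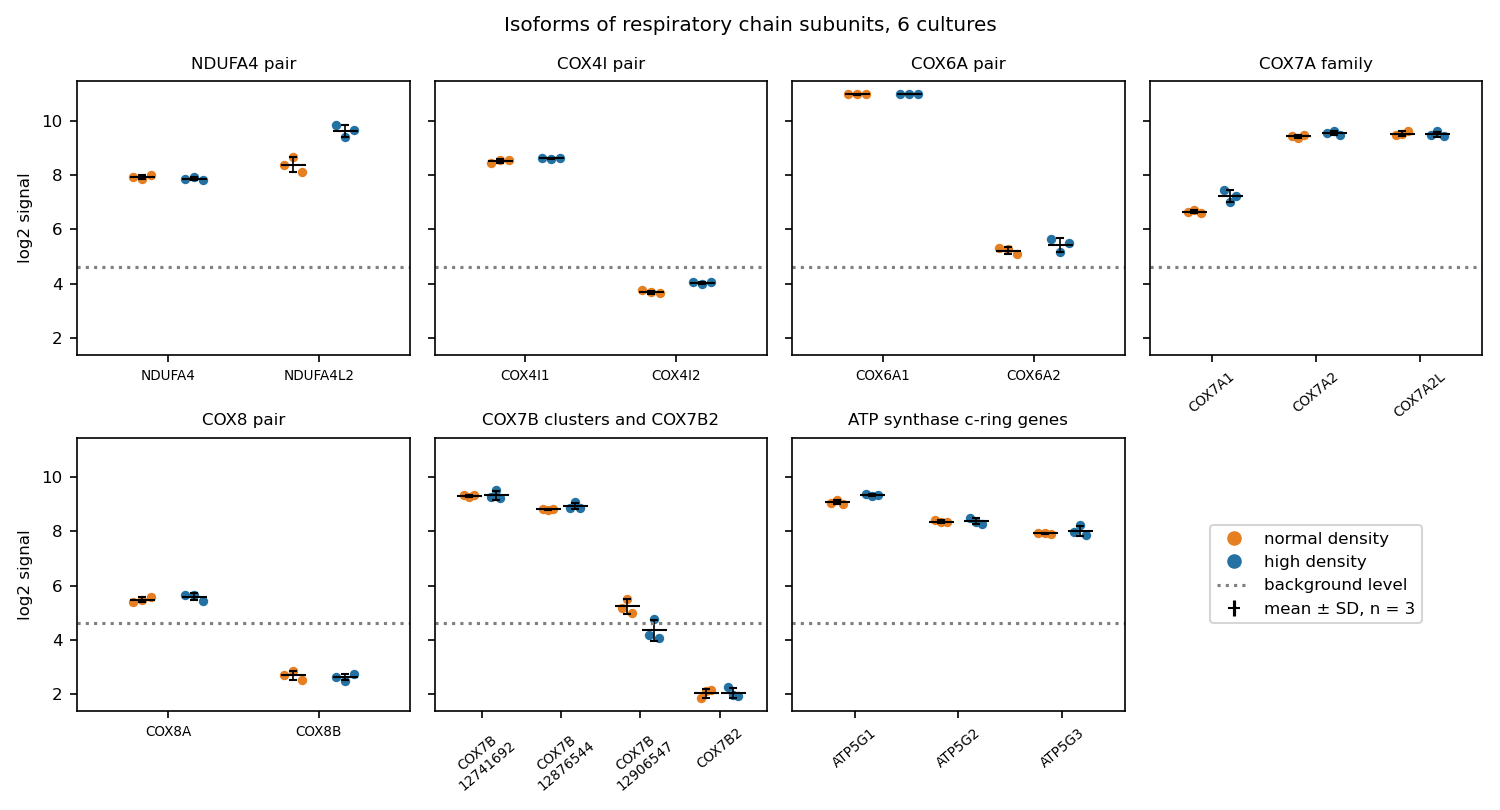
Log2 signals of isoforms and of repeated transcript clusters in the 6 cultures, as points, with the mean ± SD of 3 cultures per density in black and the background level of 4.62 as a dotted line. NDUFA4L2 and COX7A1 stand clearly higher at high density, COX7A2 stands higher by a small step that did not pass the FDR, NDUFA4 and COX7A2L overlap between the densities, and of the 3 COX7B transcript clusters only the one near background is lower. Heights compare cultures within a transcript cluster, not different transcript clusters.

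Complex V, the ATP synthase, had 2 of 17 transcript clusters past the FDR (11.8%, against 19.1% of all). Both were higher (8.64% of all were), and the median difference over the complex was 0.09. The catalytic head had 0 of 2 subunits past the FDR. ATP5B, the beta subunit that holds the catalytic sites, differed by -0.05 with a 95% interval of -0.20 to 0.10. ATP5A1, the alpha subunit, had signals of 9.13, 9.18 and 9.19 and of 8.89, 9.14 and 8.92, a difference of -0.19 (adjusted p = 0.183, limma). High density replicates 1 and 3 were below the normal density cultures and replicate 2 was not. Without replicate 2 the ATP5A1 difference was -0.26 and passed the FDR. The central stalk subunits ATP5C1, ATP5D and ATP5E differed by -0.01, 0.14 and 0.14.

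The ring of c subunits, which turns as protons pass, is encoded by 3 genes whose mature proteins are the same. ATP5G1 had signals of 9.04, 9.17 and 9.02 at normal density and 9.36, 9.30 and 9.35 at high density. The groups did not overlap, and the difference was 0.26 ± 0.07 (SE, n = 3 per group; FC 1.2, adjusted p = 0.0427, limma). ATP5G2 was at 8.41, 8.33 and 8.32 and at 8.48, 8.36 and 8.25, a difference of 0.01. ATP5G3 was at 7.94, 7.93 and 7.90 and at 7.96, 8.23 and 7.86, a difference of 0.09 (adjusted p = 0.583, limma). Both of these overlapped between the densities. ATP5I, a small membrane subunit at the interface of synthase dimers, had signals of 6.24, 6.38 and 6.35 and of 6.93, 6.54 and 6.69 in its brighter transcript cluster 12873369. All high density cultures were above all normal density cultures, with replicate 2 the lowest of them. The ATP5I difference was 0.39 ± 0.11 (SE, n = 3 per group; FC 1.31, adjusted p = 0.0442, limma). Its other transcript cluster, 12852721, was above background on 0 arrays. As in complex I, leaving out any culture but high density replicate 2 ended the calls of ATP5G1 and ATP5I, with differences of 0.23 to 0.31 and of 0.29 to 0.42. The ATP5I call was also lost with the methods' t-test. ATP5S, coupling factor B, differed by 0.18 (adjusted p = 0.142, limma).

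Of 4 relatives of the subunits that the symbols left out, 2 passed the FDR, both higher (50%, against 8.64% of all transcript clusters). NDUFA4L2, a relative of NDUFA4 known to be induced by hypoxia and to lower respiration, had signals of 8.36, 8.66 and 8.11 at normal density and 9.85, 9.41 and 9.66 at high density. The groups lay clearly apart, and the difference was 1.26 ± 0.16 (SE, n = 3 per group; FC 2.39, adjusted p = 0.00184, limma). NDUFA4 was at 7.95, 7.84 and 8.004 and at 7.86, 7.95 and 7.82, a difference of -0.06 with overlapping groups. COX4I1, the general form of subunit 4, was at 8.45, 8.54 and 8.56 and at 8.62, 8.61 and 8.62, a difference of 0.10 (adjusted p = 0.357, limma). COX4I2, its lung form and also known as responsive to hypoxia, passed the FDR with an adjusted p of 0.013 (limma), but its means of 3.69 and 4.03 were under the background level and it was above it on 0 arrays.

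Genes known to limit or redirect respiration were listed with these. Of 14 found, NDUFA4L2 and COX4I2 among them, 6 passed the FDR (42.9%, against 19.1% of all transcript clusters), all higher, and 4 passed FC and FDR. PDK1, the kinase that shuts off pyruvate dehydrogenase, had signals of 8.80, 8.80 and 8.68 and of 9.64, 9.69 and 9.56. Its 2 groups lay far apart for their spread, with a difference of 0.87 ± 0.07 (SE, n = 3 per group; FC 1.82, adjusted p = 3.16e-04, limma). UCP2, an inner membrane carrier of the uncoupling protein family, rose by 0.80 (FC 1.74), and BNIP3, a protein of mitophagy known as a hypoxia target, rose by 0.74 (FC 1.67). LONP1, the matrix protease, rose by 0.30. PDK2, PDK3 and PDK4 differed by -0.19, -0.17 and -0.41 and did not pass, and PDK4 was above background on 0 arrays. The list was put together with results of these cultures known, so its direction is not independent evidence.

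The assembly factors, proteins that build the complexes without staying in them, passed about as often as all transcript clusters. Those that passed were lower at high density. Of 49 listed, 40 were found, and 8 passed the FDR (20%, against 19.1% of all transcript clusters). All 8 were lower, against 10.4% lower among all transcript clusters and 19.4% among those in the signal range of the subunits. Their median difference was -0.12. NDUFAF7, a methyltransferase acting on complex I, was at 6.95, 6.88 and 6.90 and at 5.91, 6.39 and 6.10. It fell by 0.78 ± 0.12 (SE, n = 3 per group; FC 1.71 towards normal density, adjusted p = 0.00422, limma) and was the only assembly factor past FC and FDR. The other 7 were ACAD9, NDUFAF1, NUBPL and TIMMDC1 of complex I, SDHAF2 of complex II, UQCC of complex III and TACO1, a translational activator for complex IV. They fell by 0.25 (SDHAF2) to 0.45 (TACO1). Without high density replicate 2, a count for these lists added after seeing the data, 9 were past the FDR (22.5%, against 15.5% lower among all transcript clusters), all lower, 7 of them shared. The others, among them SURF1 (-0.12), SCO1 (-0.14), BCS1L (-0.11) and TMEM70 (0.03), did not pass.

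The tricarboxylic acid cycle makes the NADH and succinate that the chain oxidizes. Of its 13 transcript clusters, 0 passed the FDR with limma, against 19.1% of all transcript clusters. At an unadjusted p below 0.05 there were 2 (15.4%, against 32.3% of all). The 13 differences ran from -0.23 (DLST) to 0.18 (IDH3G). Without high density replicate 2, 4 passed the FDR (30.8%, against 29.2% of all transcript clusters), 2 higher and 2 lower. Of 22 regulators of mitochondrial biogenesis listed, 16 were found, and 1 passed the FDR (6.25%, against 19.1% of all transcript clusters). An unadjusted p below 0.05 was reached by 7 (43.8%, against 32.3% of all). Of the 16 differences, 11 were below 0 and 5 above, with a median of -0.08. TFAM, the factor that packs and transcribes mitochondrial DNA, was at 7.78, 7.80 and 7.92 and at 7.50, 7.60 and 7.35, and fell by 0.35 (adjusted p = 0.032, limma). NRF1, a transcription factor for subunit genes, differed by -0.24 (adjusted p = 0.0513, limma) and GABPA by -0.09. PPARGC1A, the coactivator PGC-1 alpha, was above background on 0 arrays.

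**Figure D5:**
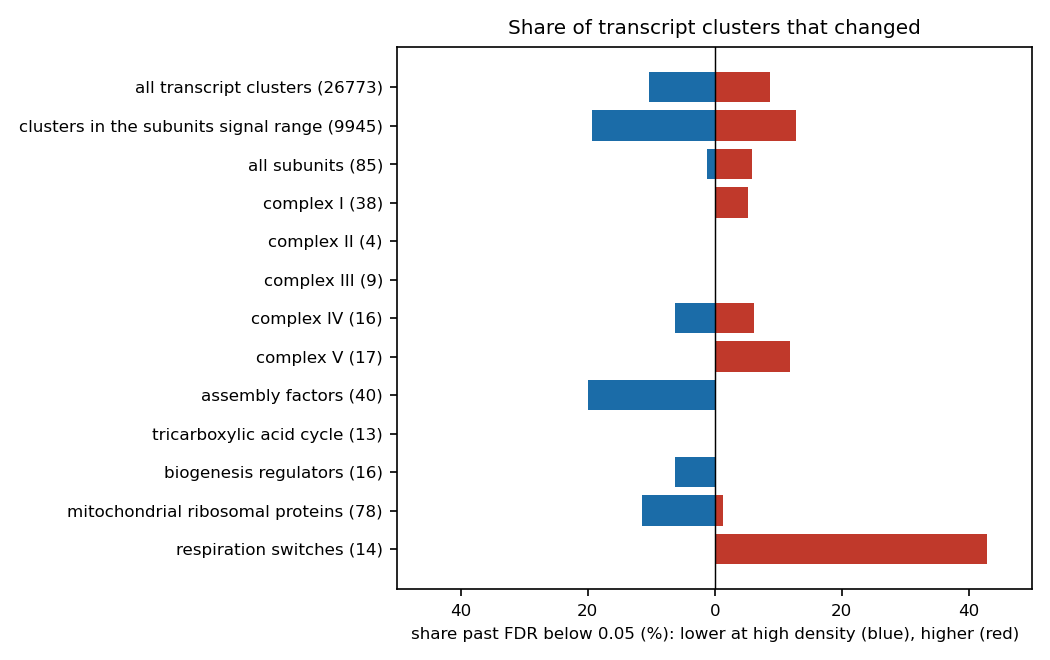
Share of transcript clusters (%) past an FDR of 0.05 at any FC, lower at high density to the left (blue) and higher to the right (red), for all transcript clusters, those in the signal range of the subunits, the subunits in all and by complex, and the lists of other mitochondrial genes, with the number of transcript clusters in brackets. The subunits changed in 7.06% of cases, against 19.1% of all transcript clusters. The assembly factors were lower in 20%, against 10.4% of all and 19.4% of those in the signal range of the subunits. The genes that limit or redirect respiration (respiration switches in the plot) were higher in 42.9%, against 8.64% and 12.8%.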

How the data were processed

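RNA of 6 GC cultures was hybridized to Affymetrix gene-level arrays (Bovine Gene 1.0 ST). The authors summarized the scanned arrays with the RMA procedure in Expression Console and deposited log2 signals per transcript cluster, background corrected and normalized, and the submitters' processing notes also name Transcriptome Analysis Console 3.0. RMA sets the arrays to one distribution, so a shift common to most genes cannot be seen. The array medians were 4.34 to 4.43. No further normalization was applied.

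All 26773 transcript clusters were fitted with limma 3.58.1 in R 4.3.3 (lmFit, eBayes, no covariates), tested on simulated data first, with Benjamini-Hochberg adjustment over the table. Thresholds were those of the methods (FC above 1.5, p and FDR below 0.05), with the FDR at any FC counted too. The background level of 4.62 is the 95th percentile of 82 reporter control rows. Intervals are 95% confidence intervals. With 3 arrays per group the precision is limited, and an exact permutation test could not go below p = 0.1. Cultures are separate preparations of pooled cells, and p-values measure the spread between them. Same-numbered cultures did not deviate together, but 3 per group cannot settle whether the numbers pair them.

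Members and lists were chosen with earlier results of these data known, so no set test was run. Named were all subunits past FC and FDR, up to 3 rises and 3 falls per complex past the FDR, complex II, CYC1, CYCS, the isoform sets, and up to 3 genes past FC and FDR in each other list. Other genes named were chosen after their values were seen. Alternatives were other variance models, the methods' analysis of variance as a t-test per transcript cluster, array weights, a replicate block, other normalizations, a background filter, an FDR of 0.01 and leaving out each culture. Figures were drawn with matplotlib 3.10.9. The values of 1 subunit are not reported here, although it is part of all counts.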

Additional observations from a re-analysis of the deposited data

How the results depend on the processing

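The 2 subunits past FC and FDR and the 6 past the FDR (5 higher, 1 lower; complex I 2, II 0, III 0, IV 2, V 2) were counted again under each alternative. A second quantile normalization gave 6 again, the same transcript clusters. Trended and robust variances gave 11 past the FDR (8 higher, 3 lower; complex I 5, II 1, III 1), array weights 13 (10 higher, 3 lower; I 7, III 1; 7977 of all transcript clusters) and the filter on signals above background 10 (3 lower; I 4, II 1, III 1), each with all 6 among them. The methods' t-test gave 4 past the FDR, NDUFA9, NDUFB11, NDUFS3 and ATP5G1 (0 lower, IV 0, V 1), and 0 with FC. These were 4.71% of the subunits, against 13.2% of all transcript clusters. With trended and robust variances the shares were 12.9% and 20.8%, and with array weights 15.3% and 29.8%. After the background filter they were 12.8% and 41.8% of those that remained. Under each alternative the share past the FDR was lower among the subunits than among all. Median centring gave 4 (2 higher, 2 lower; I 1, V 1) and 1 with FC, so the split between higher and lower turned to even. An FDR of 0.01 left 0 (0 higher, 0 lower; complexes I, IV and V 0 each), 0 with FC, and 2539 of all transcript clusters. The correlations of same-numbered cultures' deviations were 0.05, -0.05 and -0.04, and those of the other pairings ran from -0.07 to 0.09. With 3 cultures per group these values cannot settle whether the numbers pair the cultures. A replicate block gave 2 past the FDR (1 higher, complex I 0, V 0), COX7A1 and COX7B. Leaving out 1 culture gave 1 to 19 past the FDR (higher 0 to 14, lower 0 to 5, complex I 0 to 9, III 0 to 3, IV 1 to 3, V 0 to 4), 0 to 2 with FC, and 3025 to 7806 of all transcript clusters. The 19 came without high density replicate 2, where the median of complex V was -2e-04 in place of 0.09 (-2e-04 to 0.12 over the 6 cultures left out). The cause of these shifts was not tested. Among single genes named, 484 comparisons with an alternative kept direction and side of the threshold, 44 lost the call and 4 gained it. The direction turned in 20 comparisons of 7 subunits, none of them past the FDR. With other normalizations these were COX7A2L (0.0013, second quantile), COX6A1 (-0.0416 median centring, -0.0117 second quantile), COX6B2 (-0.0268 and -0.0266) and ATP5G2 (-0.0351 median centring), and with array weights SDHA (0.0081) and ATP5G2 (-0.025). Leaving out 1 culture turned ATP5G2 (-0.049 to 0.0636), ATP5G3 (-0.0138 to 0.1732), COX6A1 (-0.0019 to 0.0078), COX6B2 (-0.0414 to 0.0903), COX7A2L (-0.0784 to 0.0197), COX8B (-0.1463 to 0.0124) and SDHA (-0.0703 to 0.0293). The median of all subunits was -0.03 with median centring in place of 0.02, that of complex IV -0.03 in place of 0.01, and that of complex I 5e-04 with the second quantile normalization in place of -0.02.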

Other observations

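Mitochondrial ribosomal proteins, which translate the subunits encoded by the mitochondrial genome, are not subunits of the chain themselves. Of 78 transcript clusters (76 symbols), 10 passed the FDR (12.8%, against 19.1% of all transcript clusters), and the median difference over the 78 was -0.08. Of the 10, 9 were lower (11.5%, against 10.4% of all and 19.4% of those in the signal range of the subunits). The remaining 1 was higher (1.28%, against 8.64% of all). MRPS14, of the small ribosomal subunit, had signals of 6.94, 6.77 and 7.03 at normal density and 6.04, 6.41 and 6.09 at high density, and fell by 0.74 ± 0.12 (SE, n = 3 per group; FC 1.66 towards normal density, adjusted p = 0.00513, limma). MRPL45, of the large subunit, was at 7.51, 7.41 and 7.37 and at 8.05, 8.09 and 7.96. It was the only member past the FDR that rose (0.61, FC 1.52, adjusted p = 0.00148, limma). The other falls past the FDR ran from 0.28 (MRPL10) to 0.53 (MRPL42). In MRPS14 the high density replicate 2 was again the nearest to normal density. Without that culture 27 passed the FDR (34.6%, against 29.2% of all transcript clusters). Of these, 24 were lower (30.8%, against 15.5% of all) and 3 higher (3.85%, against 13.6% of all).

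A transcript cluster annotated to a predicted gene first and to COX7C second was left out by its symbol. It had signals of 9.04, 8.59 and 8.96 at normal density and 8.32, 8.997 and 8.34 at high density, a difference of -0.31 (adjusted p = 0.342, limma), and the groups overlapped.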
